A study of Arabidopsis thaliana with 24 samples.

Results

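Arabinogalactan proteins (AGPs) are heavily glycosylated proteins of the plant cell surface, and the fasciclin-like AGPs (FLAs) are the members of that family that also carry fasciclin domains, which serve in cell adhesion in animals. Transcripts of 10 such genes were followed in Arabidopsis thaliana seedlings under osmotic stress: AGP4 (AT5G10430), AGP9 (AT2G14890), AGP12 (AT3G13520), AGP17 (AT2G23130), AGP30 (AT2G33790), FLA1 (AT5G55730), FLA2 (AT4G12730), FLA7 (AT2G04780), FLA8 (AT2G45470) and FLA9 (AT1G03870). The 10 genes were chosen by their identifiers, and the measured value that the choice itself used was being counted in the table, which holds 18240 genes. All 10 listed genes were present. Because the list was drawn up with results of these data known, the counts of its genes that changed describe them and are no independent evidence of a direction.

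The seedlings were wild type Columbia-0, 7 days old, grown on a sugar-containing Murashige and Skoog medium. They stood for 1, 2 or 3 h in a 30% (w/v) solution of polyethylene glycol (PEG) with an average molecular weight of 8000, or for 1 h in water, and were divided into roots and shoots afterwards. That PEG solution had an osmotic pressure of -2.0 MPa. There were thus 8 groups, namely root PEG 1 h, 2 h and 3 h, root water, shoot PEG 1 h, 2 h and 3 h, and shoot water, with 3 replicates of 30 to 50 pooled seedlings in each. Water was sampled at 1 h alone, so that at 2 and 3 h the effect of PEG and that of the longer stay in solution cannot be told apart. All comparisons with water within an organ share the same 3 water libraries.

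The backbone of an AGP is rich in proline, alanine, serine and threonine, and most of its prolines are converted to hydroxyproline and loaded with branched arabinogalactan chains in the secretory pathway. Many AGPs and FLAs are tethered to the plasma membrane by a glycosylphosphatidylinositol anchor, and their acidic glycans can bind calcium. In roots they are known from cell expansion, and a FLA mutant of Arabidopsis, sos5, swells at the root tip under salt.

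The 10 genes cover the main types of the family. AGP4 and AGP9 are classical AGPs, with a backbone that is glycosylated along its length. AGP17 belongs to the lysine-rich classical AGPs, AGP12 encodes a short precursor of an AG peptide, and AGP30 is a chimeric AGP with a cysteine-containing domain beside its AGP part. FLA7 and FLA9 are short FLAs with a single fasciclin domain, and FLA1, FLA2 and FLA8 are longer. The stretch of 72 coding bases with the most proline codons is shown for 1 or more genes of each type, because proline residues carry the glycans of an AGP. The bases are those of the coding strand in RefSeq, assembly TAIR10.1, and capitals mark proline codons.
AGP4: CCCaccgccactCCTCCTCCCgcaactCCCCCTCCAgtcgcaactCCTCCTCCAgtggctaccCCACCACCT
AGP9: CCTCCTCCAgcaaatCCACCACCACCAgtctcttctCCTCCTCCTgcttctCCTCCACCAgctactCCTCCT
AGP17: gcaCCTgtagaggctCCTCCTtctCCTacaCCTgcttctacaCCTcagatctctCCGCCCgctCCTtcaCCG
AGP12: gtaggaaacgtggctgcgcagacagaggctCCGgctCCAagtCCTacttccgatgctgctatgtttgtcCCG
AGP30: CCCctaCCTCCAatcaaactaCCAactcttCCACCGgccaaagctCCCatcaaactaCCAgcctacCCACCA
FLA2: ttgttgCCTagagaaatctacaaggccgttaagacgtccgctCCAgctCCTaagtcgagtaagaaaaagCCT
FLA8: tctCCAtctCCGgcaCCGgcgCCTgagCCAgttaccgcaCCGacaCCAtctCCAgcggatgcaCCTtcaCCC
FLA9: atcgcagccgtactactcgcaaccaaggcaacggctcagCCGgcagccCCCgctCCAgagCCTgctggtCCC

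These stretches held 13 proline codons in AGP4, 15 in AGP9, 10 in AGP17, AGP30 and FLA8, 5 in FLA9 and 4 in AGP12 and FLA2. Proline, alanine, serine and threonine together took 72.6% of the codons of AGP4, 71.7% of those of AGP9 and 56.8% of those of AGP17, against a median of 24.9% over 27361 coding genes. The share was 43.3% in AGP12, which has 60 codons in all, and 34.3% in AGP30. In the FLAs it ran from 31.3% in FLA2 to 43.1% in FLA8. AGP17 held 10 lysine codons, against 2 in AGP4 and in AGP9. The closest relative by coding sequence was FLA10 for FLA8, with 82.3% identity over the longer sequence, and FLA13 for FLA9, with 77.6%. AGP12 and AGP21 shared 74.3%, and AGP4 and AGP7 shared 70.1%.

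Libraries were made by MARS-seq, which counts transcripts near their 3′ ends, and values are CPM, counts scaled to a common library total of 1000000. Total counts per library had a median of 4031935 in roots and 3218775.5 in shoots, and the smallest were 1332586 (root PEG 1 h replicate 3) and 343397 (shoot PEG 2 h replicate 2). A gene at 0 counts in those 2 libraries could still stand at 2.25 and 8.74 CPM, the levels of 3 counts. The organ labels held against markers: all 8 photosynthesis genes summed to 284.5 to 371.2 CPM in root water and to 58390 to 64220 CPM in shoot water. The 6 root hair genes summed to 433.8 to 482.5 CPM in root water and 4.05 to 7.43 CPM in shoot water. The library codes carry a digit that is 5 in root water and in root PEG 1 h replicate 1 and 6 in the other root PEG libraries. In shoots it is 4 in water, PEG 1 h and PEG 2 h replicates 1 and 2, and 5 in the others. Whether the digit marks a batch is not known.

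In water, 8 of the 10 genes were higher in roots than in shoots and 2 were lower, by the quasi-likelihood test of edgeR in a joint fit of both organs, with p adjusted by Benjamini-Hochberg over the 15472 genes tested. In the same comparison 37.8% of genes were called higher and 47.6% lower, with a call meaning an adjusted p under 0.05, as it does throughout. The median log2 difference was 1.59 over the 10 genes and -0.50 over all genes.

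AGP30 was a root transcript. It stood at 377, 348 and 390 CPM in the 3 root water libraries, and had 3, 2 and 0 counts in the shoot water libraries, or 0.970, 0.580 and 0 CPM. Over the summed libraries that is 4097 counts in root water and 5 in shoot water, a ratio of 622 per total count (95% exact interval of counting error 266.5 to 1918). AGP30 is known in Arabidopsis from root regeneration and from the timing of germination under abscisic acid. It also stayed at or below 1.82 CPM in every shoot library under PEG and was not tested within shoots, so that the shoot comparisons hold 9 genes.

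AGP4 averaged 1467 ± 142 CPM in root water and 93.1 ± 23.0 CPM in shoot water (SD, n = 3 each), a log2 difference of 3.98 (adjusted p = 4.4e-19, edgeR). AGP9 averaged 1150 ± 49.0 CPM in root water and 293 ± 37.4 CPM in shoot water, a difference of 1.97. The 5 FLAs were all higher in roots, with log2 differences from 1.32 for FLA8 to 2.16 for FLA7. AGP12 and AGP17 went the other way. AGP12 had 17.2, 27.2 and 22.7 CPM in root water, against 281, 246 and 280 CPM in shoot water. AGP17 had 8.18, 8.10 and 8.00 CPM in root water, against 85.3, 107 and 101 CPM in shoot water. Both differed by -3.59 on the log2 scale (adjusted p = 2.1e-07 for AGP12 and 6e-17 for AGP17, edgeR). AGP12 and AGP17 were thus at 8.32% of their shoot level in roots. None of the 10 genes overlapped between the organs, where 37.8% of all genes were called higher and 47.6% lower. The share of all genes without overlap was not counted, so this does not set the 10 genes apart. Adding the digit of the library code to the fit took the calls of all genes from 13205 to 10102. In water the digit is 5 in all root and 4 in all shoot libraries, so it coincides with the organ there. Digits 4 and 5 meet within a group only at shoot PEG 2 h, so the term that separates them rests on those libraries. With the code digit in the fit, FLA9 stood at 0.01 (adjusted p = 1.0), FLA2 at 0.61 (0.16) and AGP30 at 4.94 (0.95), and these 3 genes lost the call, while the other 7 kept it.

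**Figure D1:**
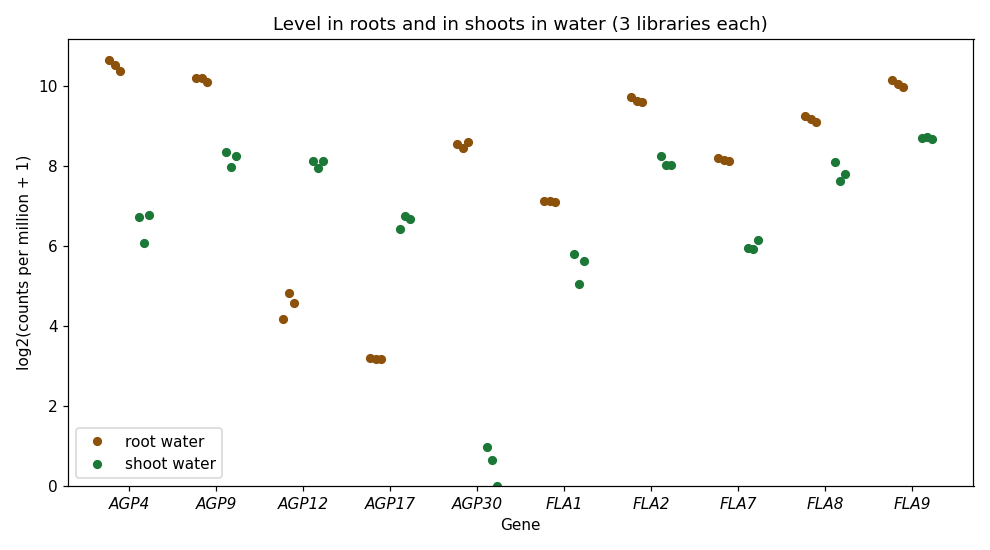
Level of each gene in the 3 root water and 3 shoot water libraries, as log2(CPM + 1). AGP30 stands at 348 to 390 CPM in roots and at 0 to 0.970 CPM in shoots, and AGP12 and AGP17 are the pair that is higher in shoots.

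In roots, more of the 10 genes were called against water at PEG 3 h than at 1 or 2 h, through more falls. There were 0, 1 and 5 falls and 3, 0 and 1 rises at 1, 2 and 3 h. Over all genes the calls grew as well, from 2248 and 2744 at 1 and 2 h to 4440 at 3 h. At 3 h, AGP4, AGP17, FLA2, FLA7 and FLA9 had fallen below water and AGP12 had risen, while AGP9, AGP30, FLA1 and FLA8 did not pass the test. These were 5 of 10 genes lower and 1 higher, beside 19.5% of the 10941 genes tested that fell and 21.1% that rose (edgeR, 12 root libraries). The median log2 fold change was -0.37 over the 10 genes and 0.07 over all genes. With the digit of the library code added to the fit, which in roots nearly coincides with the treatment, AGP4 and FLA2 kept their calls. AGP17 stood at -1.15 (adjusted p = 0.17), FLA7 at -0.54 (0.16), FLA9 at -0.79 (0.07) and AGP12 at 0.28 (0.87), and lost theirs. Over all genes the calls went from 4440 to 987 with the digit. In these bulk samples, fewer cells of a type and less RNA per cell cannot be told apart.

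Among the classical AGPs, AGP4 fell to 920, 730 and 640 CPM at 3 h, against 1476, 1353 and 1195 CPM in root water. Every PEG 3 h library lay below every water library, and the log2 fold change was -0.81 (SE 0.14, adjusted p = 2e-04, edgeR). AGP4, also called JAGGER, is known in Arabidopsis for keeping further pollen tubes from a fertilised ovule. A gene on the opposite strand, AT5G10435, overlaps AGP4 by 585 bases. The use of strand in counting is not given, and AT5G10435 itself held 110 counts over all libraries, against 52675 for AGP4. AGP9 had 1416, 1085 and 943 CPM at 3 h, against 1091, 1074 and 990 CPM in water, and the groups overlapped (0.13, SE 0.14, adjusted p = 0.51, edgeR).

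The lysine-rich AGP17, whose loss in the Arabidopsis rat1 mutant hinders transformation by Agrobacterium, was low in roots. It had 15, 13 and 20 counts at 3 h, against 30, 28 and 31 counts in water, or 3.26, 2.20 and 3.75 CPM against 7.52, 7.43 and 7.24 CPM. The PEG libraries lay below the water libraries, and the log2 fold change was -1.27 (SE 0.27, adjusted p = 0.0011, edgeR).

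AGP12 was the 1 of the 10 that was higher in roots at 3 h. It had 30.2, 68.5 and 76.2 CPM at PEG 3 h, against 15.8, 24.9 and 20.5 CPM in root water, a log2 fold change of 1.52 (SE 0.45, adjusted p = 0.024, edgeR). All PEG libraries lay above all water libraries. The call did not outlast leaving out root water replicate 1 (adjusted p = 0.086) or 3 (0.075), or PEG 3 h replicate 2 (0.073) or 3 (0.083). Since AGP12 is the more abundant in shoots, photosynthesis genes are the measure of shoot RNA beside it. Their sum was 328.4 to 609.4 CPM at root PEG 3 h and 284.5 to 371.2 CPM in root water. By edgeR 0 of 8 of them were called, and 1 of 8 had an unadjusted p under 0.05. In shoot water the same sum was 58390 to 64220 CPM.

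Of the 5 FLAs, FLA2, FLA7 and FLA9 fell in roots. FLA2 had 466, 331 and 447 CPM at 3 h, against 780, 719 and 709 CPM in water, a log2 fold change of -0.83 (SE 0.13, adjusted p = 8.4e-05, edgeR). FLA9 had 647, 512 and 682 CPM at 3 h, against 1042, 969 and 910 CPM in water, a change of -0.67 (SE 0.14, adjusted p = 0.0012, edgeR). In both the PEG and water libraries were apart. FLA7 averaged 197 ± 16.3 CPM at 3 h and 260 ± 9.60 CPM in water (SD, n = 3 each), a smaller difference of -0.40 (adjusted p = 0.014, edgeR). Leaving out PEG 3 h replicate 2 ended this call (adjusted p = 0.058). FLA8 averaged 417 ± 80.4 CPM at 3 h and 528 ± 27.9 CPM in water, with overlapping libraries (-0.34, adjusted p = 0.051). FLA1, known in Arabidopsis for its part in shoot regeneration from callus, averaged 146 ± 22.7 CPM at 3 h and 127 ± 2.47 CPM in water (0.21, adjusted p = 0.23).

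**Figure D2:**
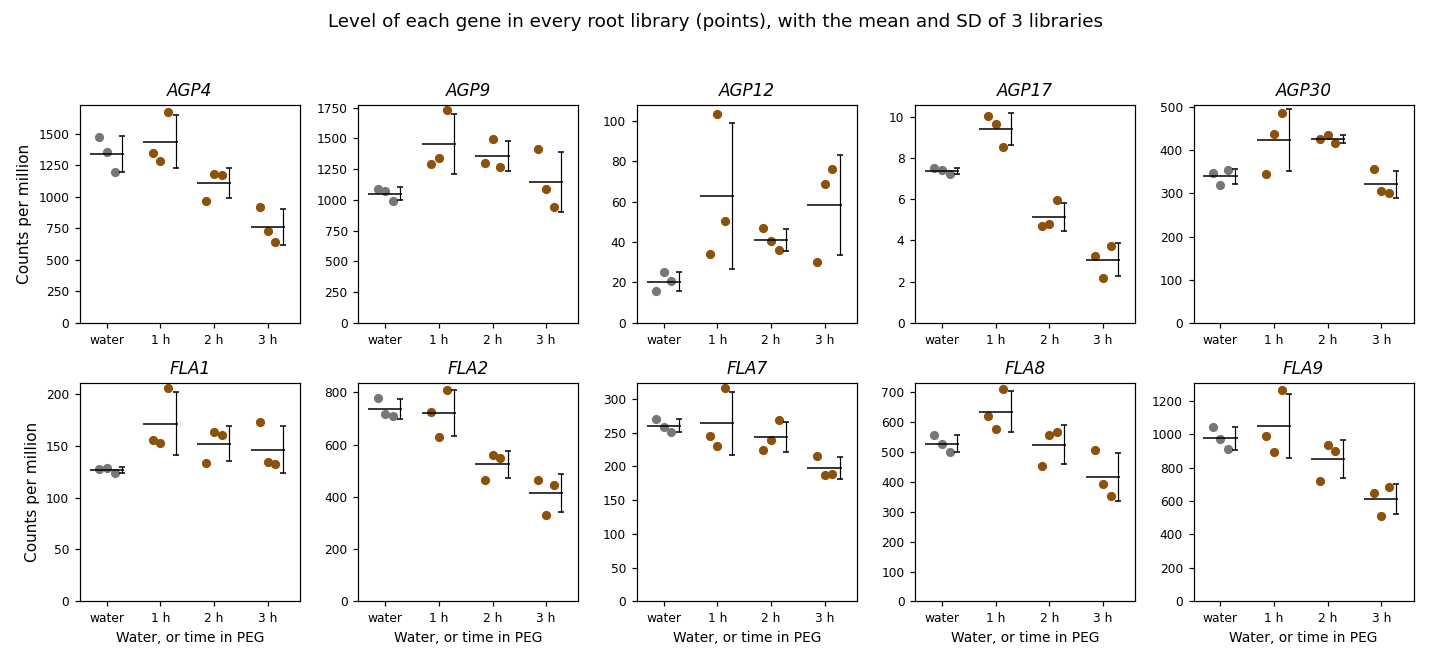
Level in CPM of each gene in the 12 root libraries. Points are libraries, horizontal lines are group means and vertical bars are SDs of 3 libraries. AGP4, AGP17, FLA2, FLA7 and FLA9 have all 3 PEG 3 h libraries below the 3 water libraries, and root PEG 1 h replicate 3, the smallest root library, is the highest PEG 1 h point for all genes but AGP12 and AGP17.

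At 1 h the root picture was another one. AGP9, AGP12 and FLA1 rose, 3 of 10 genes, and the lowest log2 fold change of the 10 was -0.03 (FLA2), beside 11.5% of 10941 genes that rose and 9.06% that fell. AGP9 had 1290, 1344 and 1732 CPM at PEG 1 h, against 1091, 1074 and 990 CPM in water (log2 fold change 0.47, SE 0.14, adjusted p = 0.028, edgeR). FLA1 had 155, 152 and 206 CPM at 1 h, against 128, 128 and 124 CPM in water (0.42, SE 0.14, adjusted p = 0.038, edgeR). AGP12 had 34.1, 103 and 50.4 CPM at 1 h, against 15.8, 24.9 and 20.5 CPM in water (1.66, SE 0.47, adjusted p = 0.034, edgeR). In these 3 genes the PEG and water libraries did not overlap. Nor did they in AGP17 (adjusted p = 0.35, edgeR) and FLA8 (0.18), which were not called. The share of all genes without overlap was not counted here either. The calls of AGP9, AGP12 and FLA1 hung on single libraries. By edgeR, 0 of 10 genes were called without any 1 of the 3 water libraries, without PEG 1 h replicate 2, or without PEG 1 h replicate 3. At an unadjusted p under 0.05, there were 2 genes without PEG 1 h replicate 3 and 3 genes in each of the other 4 cases.

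PEG 1 h replicate 3 stood apart from the other root libraries. The summed level of the 10 genes was 7262 CPM in it, against 5762 and 5663 CPM in the other PEG 1 h libraries and 5060 to 5713 CPM in water. Without scaling beyond the library total its sum was 6379 CPM, still the highest of the root libraries. It also held the fewest counts, and whether depth has a part in this was not tested. Without it the summed level at 1 h was 1.06 times that of water, and with it 1.16 times.

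At 2 h FLA2 fell in roots, 1 of 10 genes, beside 12.3% of 10941 genes that fell and 12.7% that rose. It had 464, 561 and 548 CPM at 2 h, against 780, 719 and 709 CPM in water (-0.49, SE 0.13, adjusted p = 0.011, edgeR), and leaving out PEG 2 h replicate 1 ended the call (adjusted p = 0.067). AGP30, at 426, 436 and 417 CPM at 2 h against 347, 319 and 353 CPM in water, lay just above the threshold (0.33, adjusted p = 0.055, edgeR), as did AGP9 (0.37, adjusted p = 0.07).

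The fall from the first to the third hour can be read without the water libraries. At PEG 3 h against PEG 1 h in roots, 7 of 10 genes fell, beside 8.58% of 10941 genes that fell and 5.57% that rose. They were AGP4 (-0.91), AGP17 (-1.64), AGP30 (-0.39), FLA2 (-0.80), FLA7 (-0.41), FLA8 (-0.61) and FLA9 (-0.77), with SEs from 0.12 to 0.28 and adjusted p from 0.00035 to 0.037 by edgeR. The median was -0.51 over the 10 genes and -0.02 over all genes. The number of calls depended on the fit. It was 7 with DESeq2 size factors too, in roots alone. When all 24 libraries were scaled and fitted together, the median of all genes moved by 0.21 and 79.5% of all calls were rises, against 39.3% in the root fit, and 2 of the 10 genes, AGP4 and AGP17, remained called. Against the median of all genes in that joint fit, 0.25, the 10 genes still had a median of -0.28, and 10 of 10 lay below it. The weaker calls of AGP30 and FLA7 ended on leaving out PEG 1 h replicate 3 (adjusted p = 0.23 for both), PEG 3 h replicate 2 (0.14 for AGP30 and 0.13 for FLA7) or PEG 3 h replicate 3 (0.11 and 0.088). Leaving out PEG 1 h replicate 2 ended that of AGP30 (0.11), and leaving out PEG 1 h replicate 1 that of FLA7 (0.058).

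Transcripts that mark root cell types moved as well, though not for every type. All 6 root hair genes had fallen at each time, and their sum was 38.3 to 62.6 CPM at PEG 3 h against 433.8 to 482.5 CPM in root water. The 3 endodermis genes had fallen at 3 h, to a sum of 198.4 to 237.3 CPM against 653.2 to 696.0 CPM in water. The 5 genes of xylem and secondary wall summed to 145.1 to 167 CPM at 3 h and 331.2 to 372 CPM in water. Of these, 1 of 3 tested was called lower, and the log2 fold changes ran from -1.53 to 0.23. The 5 genes of dividing cells summed to 40.9 to 45.3 CPM at 3 h and 24.3 to 31.3 CPM in water, with 2 of 4 tested called higher. The 3 root cap genes summed to 20.3 to 24.9 CPM at 3 h and 16.2 to 20.1 CPM in water, with 0 of 2 tested called. The 2 phloem genes summed to 186.2 to 231.7 CPM at 3 h and 162.8 to 180.8 CPM in water, with 0 of 2 called. At 1 h the root hair sum was 50.3 to 77.7 CPM. The part of these cell types in the changes of the 10 genes was not tested.

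In shoots most of the genes fell, with the first calls at 1 h. At 1 h AGP4 and AGP17 fell, 2 of 9 genes, beside 1.07% of 13769 genes that fell and 4.25% that rose. At 2 h 7 of 9 fell, beside 5.65% that fell and 8.19% that rose. At 3 h 8 of 9 fell, all but FLA1, beside 11.5% that fell and 14.5% that rose. The median log2 fold change over the 9 genes was -0.47, -0.79 and -0.79 at 1, 2 and 3 h, and that over all genes lay between 0.00 and 0.01. All tests were edgeR's quasi-likelihood test over the 12 shoot libraries.

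AGP17 and AGP4 were the genes called at 1 h, although FLA9 then stood at 42.2% of the water level and AGP4 at 44.1%. AGP17 had 26.2, 29.8 and 22.4 CPM at PEG 1 h, against 88.8, 111 and 104 CPM in shoot water, which is 25.9% of the water level (-1.95, SE 0.19, adjusted p = 9.6e-07, edgeR). AGP4 had 43.7, 51.4 and 32.1 CPM at 1 h, against 108, 69.1 and 112 CPM in water (-1.18, SE 0.21, adjusted p = 0.0011, edgeR). Neither group overlapped with water, and both calls held when any library of the compared groups was left out. AGP17 then stayed near 18% of the water level: 17.8% at 2 h and 18.0% at 3 h. AGP4 stood at 32.3% at 2 h and 28.7% at 3 h.

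FLA9 fell furthest. It had 35.3, 43.3 and 37.6 CPM at PEG 3 h, against 433, 435 and 421 CPM in shoot water, or 9.05% of the water level (log2 fold change -3.47, SE 0.51, adjusted p = 0.001, edgeR). At 1 h it had 214, 261 and 69.6 CPM and at 2 h 67.8, 60.9 and 169 CPM. All PEG libraries of FLA9 lay below all water libraries, but at 1 and 2 h they spread widely, and the 1 h difference of -1.24 did not pass the test (adjusted p = 0.19). FLA2 took a like course, with 74.2, 62.3 and 62.5 CPM at 3 h against 316, 270 and 268 CPM in water (-2.11, SE 0.32, adjusted p = 0.00039, edgeR). FLA2 and FLA9 were also the 2 of 9 genes that fell at PEG 3 h against PEG 1 h in shoots, with log2 fold changes of -1.34 (adjusted p = 0.037) and -2.22 (adjusted p = 0.045), beside 1.63% of genes that fell and 2.06% that rose. Those 2 calls were lost without any 1 of the 3 PEG 3 h libraries, without PEG 1 h replicate 1 or without PEG 1 h replicate 2 (adjusted p from 0.086 to 0.18, edgeR).

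The other genes of the shoot fell less. At 3 h AGP9 averaged 200 ± 23.5 CPM under PEG and 303 ± 39.2 CPM in water (-0.60, adjusted p = 0.0093). AGP12 averaged 175 ± 5.32 CPM under PEG and 278 ± 20.6 CPM in water (-0.67, adjusted p = 0.024). Its call was lost on leaving out any library of the pair of groups but water replicate 2 (adjusted p from 0.052 to 0.079, edgeR) and in the joint fit (0.19). FLA7 averaged 38.5 ± 8.73 CPM under PEG and 66.0 ± 5.85 CPM in water (-0.79, adjusted p = 0.014), and FLA8 averaged 165 ± 13.3 CPM under PEG and 239 ± 41.8 CPM in water (-0.54, adjusted p = 0.023; SD, n = 3 each, edgeR). FLA1 averaged 33.1 ± 4.65 CPM at 3 h and 46.4 ± 12.1 CPM in water, with overlapping libraries (-0.48, adjusted p = 0.074), though at 2 h it had passed the test (-0.79, adjusted p = 0.019). With the code digit in the fit, 5 of 9 genes were called at 3 h, while the calls of all genes went from 3578 to 2364. The median log2 fold change of the 9 genes was then -1.67, against -0.79 without the digit, and that of all genes was 0.04. In shoots both digits occur together only at PEG 2 h, so the digit term rests on those libraries. Some of the calls of the 9 genes hung on single libraries. At 3 h 5 genes were called once shoot water replicate 1 was left out and 4 once PEG 3 h replicate 2 was. At 2 h leaving out water replicate 1 left 3 calls, and leaving out water replicate 3 or PEG 2 h replicate 1 left 4. AGP4, AGP17, FLA2 and FLA9 were called at 3 h under every alternative tried, and AGP4, AGP9 and AGP17 at 2 h.

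**Figure D3:**
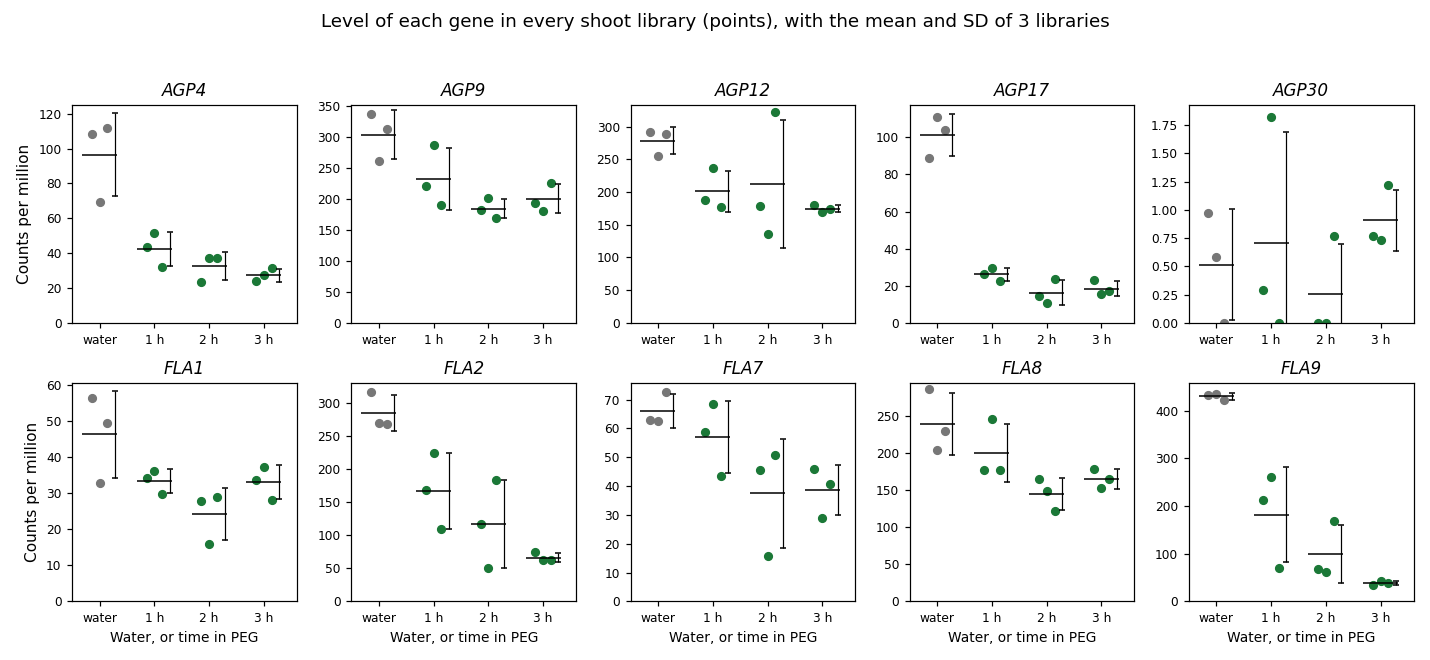
Level in CPM of each gene in the 12 shoot libraries, drawn as for roots. All genes but AGP30, which stays under 1.83 CPM, have a lower mean at each PEG time than in water, and FLA9 is at 35.3 to 43.3 CPM at 3 h against 421 to 435 CPM in water. AGP30 is scaled over both organs.

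In shoots the 8 photosynthesis genes summed to 58780 to 62550 CPM at PEG 3 h against 58390 to 64220 CPM in water, with 0 of 8 called by edgeR and 3 of 8 at an unadjusted p under 0.05. The genes of xylem and secondary wall summed to 50.0 to 66.3 CPM at 3 h against 79.6 to 87.6 CPM in water, with 1 of 3 tested called lower. The 2 phloem genes summed to 206.8 to 237.9 CPM at 3 h against 145.3 to 174.9 CPM in water, with 1 of 2 called higher, and at 2 h 1 of 2 was called lower. The part of these cell types in the fall of the 9 genes was not tested. The shallow library, shoot PEG 2 h replicate 2, held 4 counts of AGP17, 6 of FLA1, 6 of FLA7 and 14 of AGP4, so its single values are coarse. Without it AGP4, AGP9, AGP17, FLA1, FLA2 and FLA8 kept their calls at 2 h, and FLA9 lost its own (adjusted p = 0.07).

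**Figure D4:**
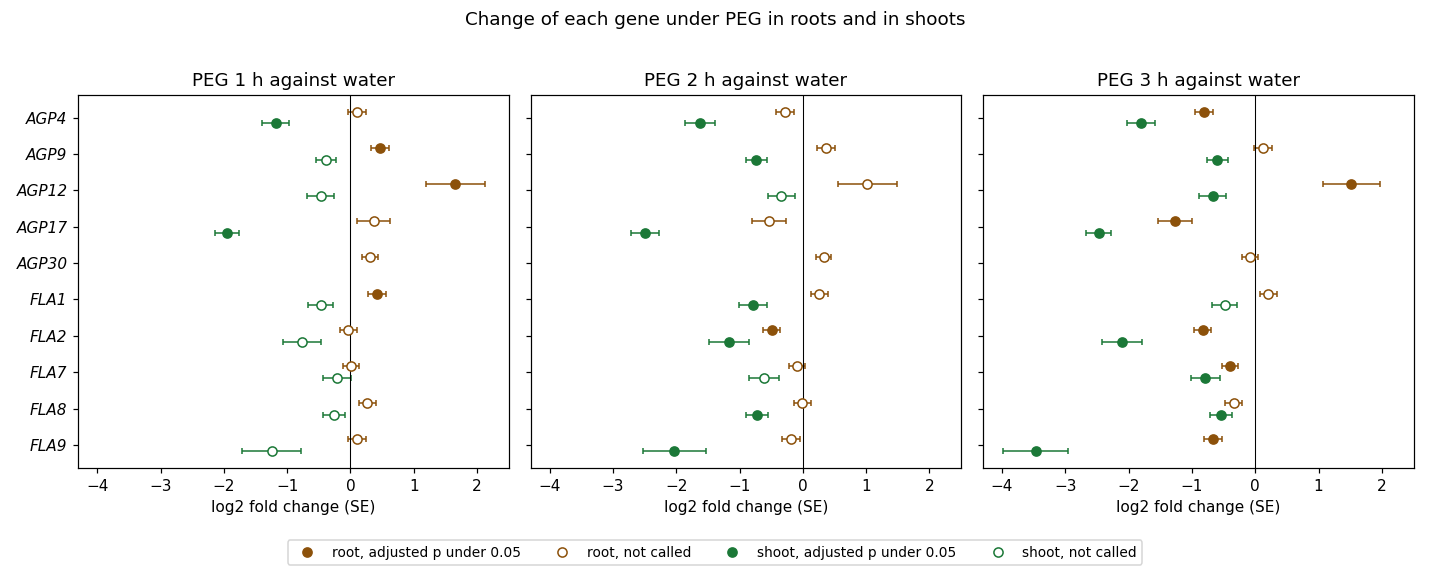
Log2 fold change of each gene under PEG against water at 1, 2 and 3 h in roots and in shoots, with standard errors implied by the F statistic. Filled points have an adjusted p under 0.05. At 3 h FLA9 is at -3.47 in shoots and -0.67 in roots, and AGP12 is at 1.52 in roots and -0.67 in shoots.

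The response differed between the organs for most of the genes at 3 h, and for fewer at 1 and 2 h. In a joint fit of the 24 libraries, the log2 fold change in roots minus that in shoots was above 0 by the test for 3 of 10 genes at 1 h, 5 at 2 h and 7 at 3 h (edgeR, adjusted over 15472 genes). Over all genes the difference was called higher in 2.72% and lower in 5.16% at 1 h, in 3.35% and 4.16% at 2 h, and in 10.1% and 6.73% at 3 h. The median difference was 0.64, 0.98 and 0.86 over the 10 genes and -0.16, -0.01 and 0.16 over all genes.

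FLA9 had the greatest difference of the 10 at 3 h, 2.80 (SE 0.50, adjusted p = 0.00098, edgeR), since it stood at 63.0% of water in roots and 9.05% in shoots. AGP17 differed most at 1 h, by 2.12 (SE 0.32, adjusted p = 6.3e-05), when its log2 fold change in roots was 0.37 (adjusted p = 0.35). That difference was 1.86 at 2 h and 1.20 at 3 h. AGP4 differed by 1.05, 1.26 and 0.99 at the 3 times, with adjusted p of 0.0086, 0.0032 and 0.0068. AGP12 differed by 2.20 at 3 h (SE 0.53, adjusted p = 0.0086), the 1 gene that was called higher in roots and lower in shoots, though the call within either organ hung on single libraries. FLA7 and FLA8 gave differences of 0.39 (SE 0.26) and 0.20 (SE 0.22) at 3 h that did not pass the test, with adjusted p of 0.33 and 0.60, and AGP30 could not be compared with precision because shoots held so few counts of it. Roots and shoots of a treatment came from the same seedlings. With the seedling pool as a replicate block, AGP12 at 1 h (adjusted p = 0.075), FLA9 at 2 h (0.1) and FLA1 at 3 h (0.09) lost their calls. With the code digit in the fit, 1, 1 and 2 of the 10 genes were called at 1, 2 and 3 h. Over all genes 236, 140 and 427 were called with it, against 1220, 1161 and 2599 without it. AGP17 at 1 and 2 h and FLA9 at 3 h kept the call under every alternative.

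**Figure D5:**
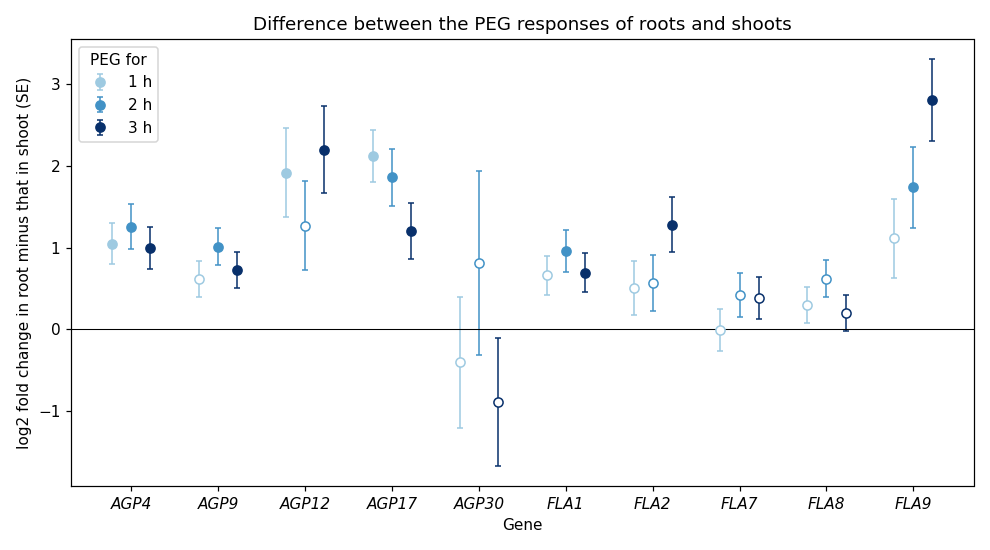
Log2 fold change under PEG in roots minus that in shoots for each gene at 1, 2 and 3 h, with standard errors. Filled points have an adjusted p under 0.05. The differences called are all above 0, from 0.69 for FLA1 at 3 h to 2.80 for FLA9 at 3 h.

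Summed over the 10 genes, the level in roots averaged 6229 ± 896, 5233 ± 445 and 4082 ± 565 CPM at PEG 1, 2 and 3 h, against 5385 ± 326 CPM in water. That is 1.16, 0.972 and 0.758 times water. In shoots the sum averaged 1140 ± 295, 868 ± 220 and 762 ± 39.5 CPM at 1, 2 and 3 h, against 1846 ± 141 CPM in water (SD, n = 3 each), or 0.618, 0.470 and 0.413 times water. The shoot sums of all 9 PEG libraries, 676 to 1440 CPM, lay below those of the 3 water libraries, 1699 to 1980 CPM. In roots the PEG 3 h sums of 3747 to 4734 CPM lay below the water sums of 5060 to 5713 CPM, and those at 2 h overlapped with water.

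How closely the genes moved together differed between pairs. Over the 12 root libraries the correlation of log2 CPM between pairs of the 10 genes ran from -0.50 to 0.95, with a median of 0.54 over 45 pairs, of which 17 were above 0.7 and 6 below 0. FLA2 with FLA9 (0.95), AGP4 with FLA8 (0.93) and AGP4 with FLA7 (0.93) were the closest pairs, and AGP12 with FLA2 (-0.50) the most opposed. AGP12 had a correlation of -0.23 with the mean of the other genes, and FLA8 one of 0.94. Over the 12 shoot libraries the 36 pairs ran from 0.40 to 0.95, median 0.73, again with FLA2 and FLA9 closest at 0.95. These are descriptions, since the libraries share groups, scaling and depth.

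By the same measure, the genes outside the list most like the mean course of the 10 genes in roots were AT4G24805 (0.96), XYP2, which RefSeq names xylogen protein 2 (0.94), the calreticulin CRT1a (0.93), the methionine synthase ATMS1 (0.93) and AT4G25320 (0.93), over 12 libraries and 6771 genes of at least 10 CPM on average. In all, 17 of these genes had a correlation above 0.9. In shoots, where the naming rule did not apply and the genes were picked after their values were seen, AT4G25730 (0.99), SHD (0.98), EXL3 (0.98) and BIP1 (0.97) were among the closest of 8299 genes, 174 of which were above 0.9.

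Of the family lists, 41 of 53 entries were in the table: the 10 genes above and 31 others. In roots at 3 h, 4 of the 28 others tested rose and 11 fell, beside 21.1% of all genes that rose and 19.5% that fell, with a median log2 fold change of -0.19 against 0.07 over all genes. In shoots at 3 h, 3 of 25 rose and 13 fell, beside 14.5% that rose and 11.5% that fell, with a median of -0.71 against 0.01. At 1 h there were 7 rises and 5 falls in roots, beside 11.5% and 9.06% of all genes, and 4 falls in shoots, beside 1.07%. With the code digit in the fit, 4 of the 28 were called in roots at 3 h and 9 of the 25 in shoots. Beside them 987 of all 10941 genes were called in roots, against 4440 without the digit. In shoots 2364 of 13769 were called, against 3578 without it.

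AGP1, a classical AGP, went against the falls in both organs. It averaged 1139 ± 315 CPM at PEG 3 h and 288 ± 18.1 CPM in water in roots (1.98, adjusted p = 2.6e-08, edgeR), and 469 ± 18.1 CPM at PEG 3 h and 157 ± 14.5 CPM in water in shoots (1.58, adjusted p = 0.0015). AGP2, another classical AGP, fell in roots at 3 h (-0.71, adjusted p = 0.0012) and rose in shoots (1.02, adjusted p = 3e-04). AGP3 fell most among the family in roots, to 87.5 ± 18.4 CPM at 3 h against 387 ± 44.6 CPM in water (-2.15, adjusted p = 2.9e-09, edgeR). The AG peptide gene AGP24 (-0.90), the classical AGP7 (-0.84), FLA13 (-1.47) and FLA15 (-1.50) fell there too. AGP31, a chimeric AGP, averaged 2362 ± 147 CPM at PEG 3 h and 2459 ± 347 CPM in water in roots (-0.06, adjusted p = 0.79).

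In shoots the lysine-rich AGP18, a relative of AGP17 known in Arabidopsis from the formation of the female gametophyte, fell to 33.1 ± 5.83 CPM at 3 h, against 198 ± 25.6 CPM in water (-2.59, adjusted p = 2e-07, edgeR). In roots AGP18 averaged 158 ± 31.3 CPM at 3 h and 170 ± 11.3 CPM in water (-0.11, adjusted p = 0.55). FLA13, the closest relative of FLA9 by sequence, fell to 97.6 ± 7.96 CPM at 3 h in shoots, against 483 ± 53.5 CPM in water (-2.31, adjusted p = 3.4e-05, edgeR). FLA4, which is SOS5, fell in shoots (-1.51, adjusted p = 6.5e-05) and stood at 23.7 CPM in roots in both groups (-0.01, adjusted p = 0.99). AGP25 fell in shoots as well (-1.68).

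Among the enzymes that hydroxylate AGP prolines and build the arabinogalactan chains, 2 of 8 tested rose and 2 fell in roots at 3 h, near the 21.1% and 19.5% of all genes that did. In shoots 3 of 16 fell, beside 11.5% of all genes. GLCAT14A, which adds glucuronic acid to the chains, averaged 9.42 ± 4.54 CPM at PEG 3 h and 3.84 ± 0.749 CPM in water in roots (1.30, adjusted p = 0.022, edgeR). In shoots GALT29A, a galactosyltransferase of the side chains, fell (-1.98, adjusted p = 0.00056), as did P4H2, a prolyl hydroxylase (-0.58, adjusted p = 0.041). GALT29A and P4H2 lay outside the naming rule and were picked after their values were seen. The root calls fell to 1 of 8 with the code digit in the fit, which took the calls of all genes from 4440 to 987. They fell to 2 of 8 without some single libraries. The shoot calls fell to 2 of 16 without any 1 library of the groups compared.

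The promoters of the 10 genes, taken as 250 bases before to 50 after the RefSeq start, were searched on both strands for 6 short motifs. The ABRE core ACGTG was in 1 of 10 (FLA1), against 26.7% of 27443 promoters, and the G-box CACGTG, which contains it, in none, against 7.68%. The DRE core CCGAC was in 1 (FLA2), against 15.0%, and the W-box core TTGAC in 4, against 50.5%. TATAAA was in 7, against 52.1%, and TGGGCC in none, against 15.5%. These are matches of letters in this window and say nothing of binding.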

How the data were processed

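Total RNA was taken from the roots and the shoots of 12 seedling pools and sequenced by MARS-seq as 24 libraries, per the labels' protocols. A root and a shoot library of the same treatment and letter were taken as 1 pool. Their deviations from the group means had correlations from -0.087 to 0.108 over 12 pairs. Pairs of unlike letter ran from -0.091 to 0.097 over 24 pairs, so these values do not show a shared pool. Reads were handled with bcl2fastq, cutadapt, STAR 2.4.2a, HTSeq and DESeq2, per the submitters' processing notes; the genome build, the use of strand and any collapsing of molecular identifiers are not given in the sources used here. The authors deposited counts per gene and library in 1 table of 18240 genes, and only these counts were used. The other 216 deposited columns of per-library values and comparisons were not used. Intervals and floors of 3 counts cover counting error only.

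In R 4.3.3, edgeR 4.0.16 fitted each organ (12 libraries, 4 group means) and all 24 libraries jointly, with filterByExpr, TMM scaling and the robust quasi-likelihood F test, two-sided, adjusted by Benjamini-Hochberg over all genes tested. CPM are counts per TMM-scaled library, from the organ fit, or from the joint fit where organs are compared. The sums of marker genes and the floors of 3 counts are instead per plain library total, without TMM scaling. A standard error is the fold change divided by the root of F. The fits were also run on simulated counts with planted changes. Those counts held no effect of the code digit or of a shared pool, so that run does not bear on calls that depended on either. The 10 genes, the family, enzyme and marker lists and the tests were chosen with earlier results of these data known. Genes outside the 10 were named by rule: the 4 most abundant in roots, those with the lowest adjusted p at 3 h (6 in roots, 4 in shoots, 4 enzymes in roots), and the 5 most correlated in roots. Enzymes that RefSeq does not list under the name in the list were counted and not named. Other scalings, no filter, DESeq2 1.42.0, a replicate block, the library code digit and leaving out each library were tried as alternatives.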

Additional observations from a re-analysis of the deposited data

Results flagged for a closer look

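For 15 gene and time combinations, the response to PEG differed between roots and shoots by the test of the difference itself, an edgeR quasi-likelihood test adjusted over 15472 genes. Each value below is the log2 fold change under PEG in roots minus that in shoots. At 1 h the differences were 2.12 for AGP17 (adjusted p = 6.3e-05), 1.92 for AGP12 (0.037) and 1.05 for AGP4 (0.0086). At 2 h they were 1.86 for AGP17 (0.00073), 1.74 for FLA9 (0.04), 1.26 for AGP4 (0.0032), 1.01 for AGP9 (0.004) and 0.96 for FLA1 (0.016). At 3 h they were 2.80 for FLA9 (0.00098), 2.20 for AGP12 (0.0086), 1.28 for FLA2 (0.011), 1.20 for AGP17 (0.014), 0.99 for AGP4 (0.0068), 0.73 for AGP9 (0.019) and 0.69 for FLA1 (0.043). Over 17 alternatives, FLA1 at 3 h lost its call in 13, FLA9 at 2 h in 12 and AGP12 at 1 h in 10. AGP9 at 3 h lost it in 4, and AGP17 at 3 h and FLA1 at 2 h in 2. The other 9 combinations lost it in at most 1. With the seedling pool, which roots and shoots share, as a replicate block, the adjusted p was 0.09 for FLA1 at 3 h, 0.1 for FLA9 at 2 h and 0.075 for AGP12 at 1 h. In AGP9 at 2 h and FLA1 at 2 and 3 h, the joint fit had all root PEG libraries above all root water libraries, without a call at that time in the root fit. Groups of 3 are too small to test a single library as an outlier.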

How the results depend on the processing

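Of 10 genes called between root and shoot in water, 7 kept the call and direction under all alternatives, as did AGP4 and FLA2 at root PEG 3 h, AGP4 and AGP17 at root PEG 3 h against 1 h and at shoot PEG 1 h, AGP4, AGP9 and AGP17 at shoot PEG 2 h, and AGP4, AGP17, FLA2 and FLA9 at shoot PEG 3 h. The cause of the changes below was not tested.

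With no filter on low counts, 0 of 10 genes were called at root PEG 1 h (3 at an unadjusted p under 0.05, edgeR) and 0 at shoot PEG 3 h against 1 h (5 unadjusted). With the digit of the library code added to the fit, the numbers called were 0 at root PEG 1 h and 0 at 2 h (none at an unadjusted p under 0.05 either), 2 at root 3 h, 5 at shoot 3 h, and 1, 1 and 2 for the root minus shoot differences at 1, 2 and 3 h. The calls over all genes fell as well, to 629, 613 and 987 at root PEG 1, 2 and 3 h from 2248, 2744 and 4440. They fell to 2364 from 3578 at shoot 3 h, and to 236, 140 and 427 from 1220, 1161 and 2599 for the differences. Elsewhere the digit gave 8 genes at shoot 2 h, against 7, and 3 at shoot 3 h against 1 h, against 2. It left 2 at shoot 1 h and 7 at root 3 h against 1 h. Over all genes the calls in these 4 comparisons were 2096, 747, 961 and 1215, against 1905, 507, 733 and 1548. In the joint fit of all libraries, the numbers of the 10 genes called were 1 at root PEG 1 h, 0 at 2 h (4 unadjusted) and 2 at root 3 h against 1 h. DESeq2 size factors and the DESeq2 Wald test gave 5 each for the difference at 1 h. Leaving out single libraries gave 0 to 3 genes at root PEG 1 h, 0 to 1 at 2 h, 4 to 7 at 3 h and 5 to 8 at 3 h against 1 h. In shoots it gave 2 at 1 h, 3 to 8 at 2 h, 4 to 9 at 3 h and 0 to 4 at 3 h against 1 h. For the differences between organs it gave 2 to 5, 3 to 8 and 5 to 7. The median of all genes moved by -0.21 at root PEG 1 h in the joint fit, by -0.24 for root against shoot in water with DESeq2 size factors and by 0.14 for the difference at 1 h with them, and by 0.17 for the difference at 2 h with no filter. With that last setting 69.0% of the calls were above 0, against 44.6%, and with size factors at 1 h 56.2% were, against 34.5%.

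No pairing by replicate letter was seen: same-lettered libraries of an organ had correlations of their deviations between -0.141 and 0.223 in roots and between -0.246 and 0.286 in shoots, and 2 of 18 pairs in each were over 0.1. Pairs of unlike letter ran from -0.364 to 0.321 in roots (4 of 36 over 0.1) and from -0.305 to 0.332 in shoots (9 of 36). With groups of 3, such deviations cannot exclude a pairing. With a replicate block, 3, 1, 6 and 7 genes were called in the 4 root comparisons, as without it, and 2, 5 and 8 at shoot PEG 1, 2 and 3 h, against 2, 7 and 8. At shoot PEG 3 h against 1 h 0 were called with the replicate block (5 unadjusted, edgeR).

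Values that changed sign were not called in any of the fits. At root PEG 1 h, AGP4 was at -0.13 and FLA9 at -0.13 in the joint fit, and FLA7 at -0.22 there, at -0.0375 with size factors, -0.0417 with the Wald test, -0.0828 with no filter and -0.0861 with the digit. Leaving out single libraries gave -0.0409 to 0.124 for AGP4, -0.134 to 0.0103 for FLA2, -0.149 to 0.052 for FLA7 and -0.0651 to 0.159 for FLA9. With the digit, AGP12 was at -0.22 and AGP30 at -0.0916 at root PEG 2 h, and AGP9 at -0.12 at 3 h. Without single libraries FLA8 was at -0.111 to 0.089 at root 2 h and AGP9 at -0.058 to 0.25 at 3 h. At root 3 h against 1 h the joint fit gave 0.0767 for AGP12 and 0.013 for FLA1, and leaving out libraries gave -0.43 to 0.54 for AGP12. At shoot 3 h against 1 h FLA8 was at 0.0994 with the digit, and FLA1 at -0.113 to 0.0858 without single libraries. For the root minus shoot difference at 1 h, FLA7 was at 0.20 with size factors and with the Wald test, 0.14 with no filter, 0.0016 with the replicate block of seedling pools and -0.0981 to 0.41 without single libraries, and AGP30 at -1.11 to 1.96 without single libraries. AGP30 was at -0.11 to 4.34 at 2 h without single libraries and at 3.20 at 3 h with the digit, where FLA8 was at -0.19. Depth limits AGP17 in roots, AGP30 in shoots and all genes in shoot PEG 2 h replicate 2 most.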
